A study of Arabidopsis thaliana with 6 samples.

Results

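Cytochrome P450 genes were followed in rosette leaves of the pho1 mutant of Arabidopsis thaliana and of its wild type. Members were the probe sets with exactly 1 listed gene whose symbol is CYP followed by a family number, a subfamily letter and a gene number. The rule found 23 of the 22746 probe sets other than controls, 1 for each of 23 genes, and no measured value entered it. The RefSeq gene table holds 236 genes with a symbol of this form, so most of the superfamily is not analysed here. Of the 23, 19 belong to the CYP71B subfamily, and CYP51G2, CYP78A9, CYP79A2 and CYP84A4 stand for 4 other families. The pattern left out 3 probe sets whose symbols also start with CYP. CYP71 and CYP59 are cyclophilins and no P450 enzymes, and CYP718 is a P450 without a subfamily letter.

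Leaf RNA of 3 pho1 samples and 3 wild-type samples was hybridised to ATH1 arrays, 1 sample per array. The pho1 plants carry an EMS-induced mutation in the Col-2 background, and the wild-type plants are Col-2. All plants grew to stage 3.90 under a 16 h photoperiod at 24 °C and 80% humidity, on MS medium set with 0.8% agar and holding 1% sucrose. PHO1 acts in loading phosphate into the xylem, so pho1 shoots are short of phosphate. No label says whether the replicates of a group came from separate plants, so the p-values reflect only how far these samples spread, which could be technical. In whole leaves, fewer cells of a type and less RNA per cell cannot be told apart.

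P450 enzymes are haem proteins that split molecular oxygen and insert one of its atoms into a substrate. In plants most sit on the endoplasmic reticulum and draw electrons from NADPH through a P450 reductase. Different families make or break down hormones, sterols, lignin precursors, pigments and defence compounds. CYP71B belongs to the largest plant P450 family. PAD3, the camalexin enzyme of that subfamily, is not analysed here. A role is given below only for members where it is well established.

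Array medians ranged from 41.4 to 46.6. Both replicate 1 arrays stood apart. Their median signals over 12 bacterial spike-in probe sets were 2.15 in pho1 and 4.00 in wild type, against 53.9 and 64.9 on the other pho1 arrays and 92.8 and 52.4 on the other wild-type arrays. The labels name no batch, and replicate 1 alone, with 1 array of each genotype, cannot be tested. Results are therefore also given for replicates 2 and 3 on their own. Only 7 of 19 fixed marker loci had a named probe set. The 4 leaf genes RCA, LHCB4.2, SBPASE and PRK were bright on every array, with a lowest signal of 1195. Their signals were not even across replicates. On the log2 scale both replicate 1 arrays together lay above the mean of the other 4 arrays, by 0.63, 0.79, 0.41 and 0.79 in that order. SBPASE, a Calvin cycle enzyme, was lower in pho1 in replicates 2 and 3 alone, at -0.80 (limma adjusted p = 0.019), and at -0.56 over all arrays (limma adjusted p = 0.39). The other leaf genes did not pass in either fit and differed in sign. LHCB4.2 was at 0.28 over all arrays and 0.48 in replicates 2 and 3, RCA at 0.03 and 0.04, and PRK at -0.22 and -0.29. The trichome gene TRY had 25.7, 12.0 and 25.5 in pho1 and 26.5, 38.4 and 38.4 in wild type, with all pho1 arrays lower and a log2 difference of -0.54 (limma adjusted p = 0.35), or -0.79 in replicates 2 and 3 (limma adjusted p = 0.066). The guard cell gene FMA differed by 0.28 over all arrays and by 0.44 in replicates 2 and 3 (limma adjusted p = 0.53 and 0.11). The root gene PYK10, the only named member of the 3 root markers, had 278, 571 and 457 in pho1 and 190.5, 173 and 398 in wild type. Its log2 difference was 0.80 (limma adjusted p = 0.35), or 0.93 in replicates 2 and 3 (limma adjusted p = 0.10). Between both replicate 1 arrays and the other 4 arrays, PYK10 differed by -0.65, FMA by -0.07 and TRY by -0.03. The part of these markers in the results below was not tested. The 8 fixed electron donors of the P450 system, reductases and cytochromes b5 among them, had no named probe set.

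CYP71B23 was higher in pho1 leaves, and it was the only one of the tested P450 genes to pass over all arrays. The test was made on log2(signal + 10), where differences of dim probe sets are understated. Of the 23 members, 13 were bright enough for it, 11 of them CYP71B genes, and the call required a limma adjusted p under 0.05 over 15922 probe sets. It was met by 1 of the 13 in the direction higher in pho1 and by 0 in the other. Over all tested probe sets 2.96% passed, 2.62% higher and 0.345% lower, so a single call among 13 is too few to read against this background. At an unadjusted p under 0.05 there were 2 members, against 15.1% of all tested probe sets. The median log2 difference of the 13 was 0.04, against -0.02 for all tested probe sets, with 8 above 0 and 5 below. With the replicate number as a block 1 member passed, again CYP71B23, against 6.64% of all tested probe sets. In that fit 6 of the 13 had an unadjusted p under 0.05, against 21.8% of all tested probe sets, and besides CYP71B23 the 95% intervals of CYP71B6 (0.16 to 0.97), CYP71B22 (0.38 to 1.54), CYP71B26 (0.03 to 1.88), CYP71B24 (-0.96 to -0.18) and CYP71B5 (-0.79 to -0.14) left out 0, at limma adjusted p of 0.070 to 0.21; with array weights 5 passed, against 23.8%.

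**Figure D1:**
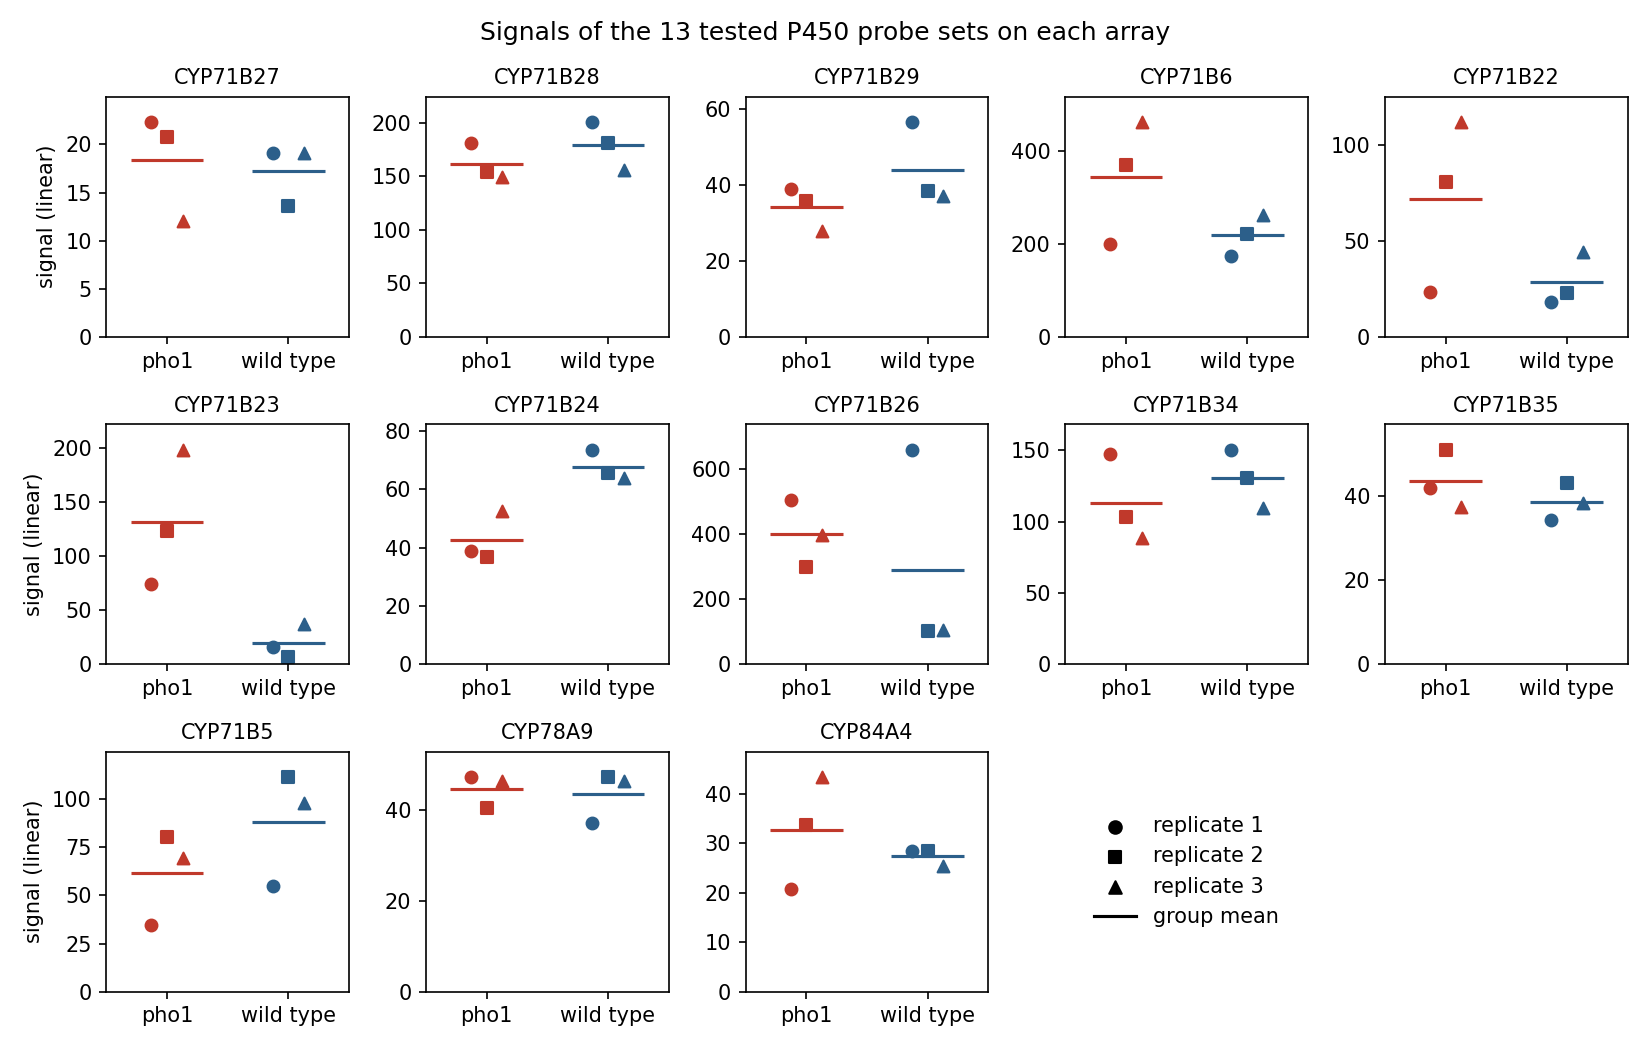
Linear signal of each tested P450 probe set on every array, pho1 left and wild type right; symbols mark the replicate number and lines the mean of 3 arrays. Axes start at 0 and differ between panels. The pho1 values lie wholly above the wild-type values for CYP71B23 and wholly below them for CYP71B24, and overlap in the other 11 panels.

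CYP71B23 (AT3G26210) had signals of 74.2, 123 and 198 in pho1, against 16.5, 6.90 and 37.2 in wild type. All pho1 arrays lay above all wild-type arrays. The means were 132 ± 62.6 in pho1 and 20.2 ± 15.5 in wild type (SD, n = 3 each), a ratio of 6.53. The log2 difference was 2.26 ± 0.42 (SE; limma adjusted p = 0.030), with a 95% interval of 1.29 to 3.24. It was positive in each replicate number, at 1.67, 2.98 and 2.14. In replicates 2 and 3 alone it was 2.56 ± 0.45 (SE; limma adjusted p = 0.0097). The call rested on single arrays: the limma adjusted p was 0.13 without pho1 replicate 2, 0.14 without pho1 replicate 3, 0.057 without wild type replicate 1 and 0.098 without wild type replicate 2, at log2 differences of 1.91 to 2.26. With no filter on dim probe sets it was 0.077. Its wild-type signals are low. The gene reached the brightness limit, a signal of 17.4 on the mean log2 scale, in either group taken alone. Wild type replicates 1 and 2 lay below that limit. The size of the difference depended on the offset added before log2. It was 2.82 with an offset of 1% and 1.66 with 30%, in place of 10%.

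CYP71B22 (AT3G26200) is the immediate neighbour of CYP71B23 on chromosome 3. Its signals were 23.3, 80.6 and 112 in pho1, against 18.1, 23 and 44.1 in wild type. The groups overlapped through pho1 replicate 1, which lay below wild type replicate 3, while the other 2 pho1 arrays lay above every wild-type array. The log2 difference over all arrays was 0.96 ± 0.47 (SE; limma adjusted p = 0.39), with a 95% interval of -0.11 to 2.03. With the replicate number as a block it was 0.96 ± 0.24 (SE; limma adjusted p = 0.070). Within replicate numbers it was 0.24, 1.46 and 1.17. It passed in replicates 2 and 3 alone, at 1.31 ± 0.26 (SE; limma adjusted p = 0.015), and without pho1 replicate 1, at 1.51 (limma adjusted p = 0.032). Without pho1 replicate 3 it was 0.57 (limma adjusted p = 0.81).

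CYP71B26 (AT3G26290) differed most between replicate 1 and the other replicates. It had signals of 503, 299 and 397 in pho1, against 658, 104 and 107 in wild type. Wild type replicate 1 was the highest of all arrays, while the other wild-type arrays were the lowest. Both replicate 1 arrays together lay 1.53 above the mean of the other 4 arrays on the log2 scale. The difference was -0.38 in replicate 1, 1.44 in replicate 2 and 1.80 in replicate 3. Over all arrays it was 0.95 ± 0.63 (SE; limma adjusted p = 0.55), with a 95% interval of -0.48 to 2.39. In replicates 2 and 3 alone it was 1.62 ± 0.16 (SE; limma adjusted p = 0.0013), and without wild type replicate 1 it was 1.80 (limma adjusted p = 0.010). Without wild type replicate 2 or 3 it was 0.52 or 0.54, with no call.

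CYP71B6 (AT2G24180), an enzyme that acts on indole-3-acetonitrile in indolic metabolism, lies apart from the other CYP71B members, on chromosome 2. Its signals were 200.5, 371 and 463 in pho1, against 175, 221 and 263 in wild type. Each pho1 value lay above the wild-type value of the same number, but pho1 replicate 1 lay within the wild-type range. The log2 difference was 0.57 ± 0.31 (SE; limma adjusted p = 0.45), with a 95% interval of -0.14 to 1.27. In replicates 2 and 3 alone it was 0.76 ± 0.16 (SE; limma adjusted p = 0.019). On both replicate 1 arrays the signal was low, by 0.73 on the log2 scale against the other 4 arrays. Leaving out 1 array put the difference between 0.32 (without pho1 replicate 3) and 0.90 (without pho1 replicate 1), with no call.

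CYP71B24 (AT3G26230) had signals of 38.8, 37.0 and 52.6 in pho1, against 73.6, 65.6 and 63.8 in wild type. All pho1 arrays lay below all wild-type arrays. The means were 42.8 ± 8.53 in pho1 and 67.7 ± 5.22 in wild type (SD, n = 3 each). The log2 difference of -0.57 ± 0.17 (SE) had a 95% interval of -0.96 to -0.17 and did not pass over all probe sets (limma adjusted p = 0.15). With array weights it was -0.61 and passed (limma adjusted p = 0.0096), and in replicates 2 and 3 alone it was -0.46 (limma adjusted p = 0.13). Groups without overlap were thus found in 2 of the 13 tested members, 15.4%, against 19.9% of all tested probe sets. As shares of all tested probe sets, 10.8% had all pho1 arrays higher and 9.03% had all pho1 arrays lower.

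CYP71B5 (AT3G53280) had signals of 34.5, 80.1 and 69.4 in pho1, against 54.7, 111 and 97.8 in wild type. Both replicate 1 values were the lowest of their group, so the groups overlapped although each pho1 value lay below the wild-type value of the same number. The log2 differences within replicate numbers were -0.54, -0.43 and -0.44. Over all arrays the difference was -0.47 ± 0.32 (SE; limma adjusted p = 0.58), and in replicates 2 and 3 alone -0.43 ± 0.15 (SE; limma adjusted p = 0.089). With the replicate number as a block it was -0.47 ± 0.14 (SE; limma adjusted p = 0.0996). Leaving out 1 array put it between -0.74 (without wild type replicate 1) and -0.16 (without pho1 replicate 1), with no call.

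**Figure D2:**
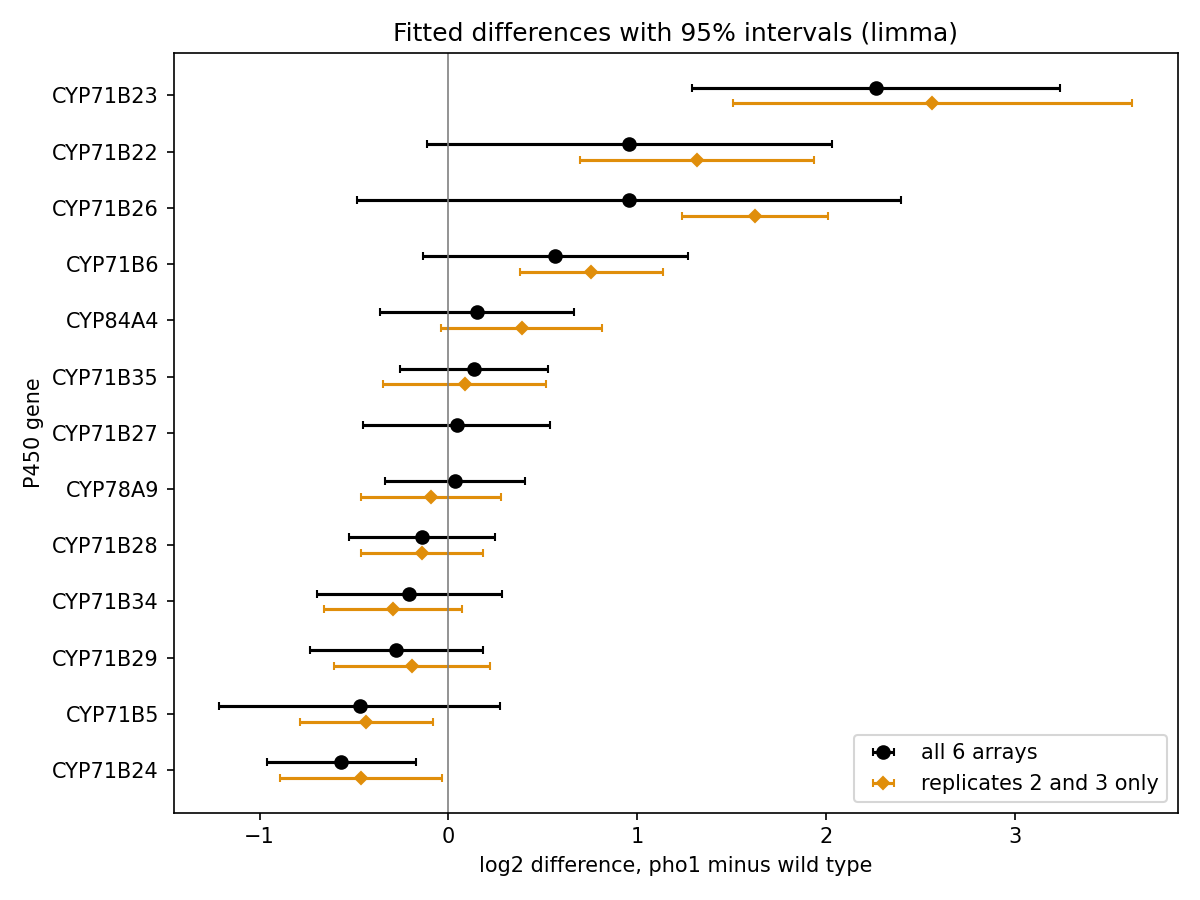
Log2 difference between pho1 and wild type (pho1 minus wild type) of each tested P450 gene with its 95% interval, over all 6 arrays (black circles) and over replicates 2 and 3 (orange diamonds). CYP71B23 lies at 2.26 and 2.56. For CYP71B22, CYP71B26 and CYP71B6 only the interval over replicates 2 and 3 lies wholly above 0. Both intervals of CYP71B24 lie wholly below 0, and for CYP71B5 only the interval over replicates 2 and 3 does. CYP71B27 has no orange point because it was too dim there.

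In replicates 2 and 3 alone, 12 members were bright enough, and 4 of them were higher in pho1: CYP71B23, CYP71B26, CYP71B22 and CYP71B6. None was lower at an adjusted p under 0.05 (limma), and 6 had an unadjusted p under 0.05 in either direction. The share called was 33.3%, against 19.0% of all tested probe sets. As shares of all tested probe sets, 9.72% were called higher and 9.26% lower. Sharing a sign in all 3 replicate numbers was seen for 8 of the 13 members, 61.5%, against 43.0% of all tested probe sets. CYP71B23, CYP71B22 and CYP71B6 lay above 0 in all 3, while CYP71B24, CYP71B5, CYP71B28, CYP71B29 and CYP71B34 lay below 0. A shift of at least 1 on the log2 scale between the replicate 1 arrays and the other arrays was seen for 2 members, CYP71B26 at 1.53 and CYP71B22 at -1.12, against 3.49% of all tested probe sets.

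The remaining CYP71B genes that could be tested did not pass, over all arrays or in replicates 2 and 3, where CYP71B27 was too dim for a test. CYP71B28 (AT1G13090) had signals of 181, 154 and 149 in pho1, against 200.4, 181 and 156 in wild type, with a log2 difference of -0.14 and a 95% interval of -0.52 to 0.25. CYP71B34 (AT3G26300) had 147, 104 and 88.6 in pho1, against 150.4, 130.5 and 109.9 in wild type, with a difference of -0.21 (interval -0.70 to 0.29). The groups overlapped for both genes. CYP71B29 (AT1G13100) had 39.0, 35.9 and 28.0 in pho1, against 56.5, 38.4 and 37.1 in wild type, a difference of -0.28 (interval -0.73 to 0.18). CYP71B35 (AT3G26310) had 42.1, 51.1 and 37.5 in pho1, against 34.3, 43.1 and 38.5 in wild type, a difference of 0.14 (interval -0.26 to 0.53). CYP71B27 (AT1G13070), a transcribed pseudogene in RefSeq, had 22.3, 20.8 and 12.0 in pho1 and 19.1, 13.6 and 19.1 in wild type. Its difference was 0.04 and turned below 0 with quantile normalization or median centring (-0.026 and -0.028). The limma adjusted p of these 5 genes lay between 0.60 and 0.96, and the intervals of all 5 leave room for log2 changes of up to 0.52 to 0.73 in size.

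Only 2 of the 4 members outside CYP71B were bright enough for a test. CYP84A4 (AT5G04330), which takes part in the synthesis of arabidopyrones from phenylpropanoid precursors, had 20.7, 33.7 and 43.3 in pho1, against 28.5, 28.4 and 25.4 in wild type. Its wild-type arrays lay close together and its pho1 arrays lay on both sides of them, with an SD on the log2 scale of 0.40 in pho1 and 0.069 in wild type. The log2 difference was 0.15 ± 0.22 (SE; limma adjusted p = 0.83). CYP78A9 (AT3G61880), of a family that promotes growth of floral organs, fruits and seeds, had 47.1, 40.3 and 46.3 in pho1, against 37.0, 47.1 and 46.2 in wild type. Its difference of 0.03 (limma adjusted p = 0.96) had an interval of -0.34 to 0.40 and turned below 0 with quantile normalization (-0.034) and median centring (-0.038).

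The other 10 members lay below the brightness limit, with signals between 0.20 and 24.1 on single arrays, and no detection calls were used. In 4 of them, CYP71B21, CYP71B30P, CYP71B31 and CYP79A2, every signal was under 3. CYP79A2 makes phenylacetaldoxime from phenylalanine, the first step to benzylglucosinolate. CYP51G2, a pseudogene in RefSeq related to the sterol demethylase CYP51G1, had 11.6, 14.5 and 24.1 in pho1 and 23.4, 12.1 and 17.5 in wild type. CYP71B38 had 7.40, 13.9 and 1.60 in pho1 and 12.3, 16.1 and 6.20 in wild type, and CYP71B36 had 1.5, 5.3 and 1.4 in pho1 and 2.4, 7.3 and 14.1 in wild type. For CYP71B25 the signals were 17.3, 11.4 and 2.6 in pho1 and 15.0, 4.6 and 2.1 in wild type. CYP71B37 had 8.50, 12.0 and 14.9 in pho1 and 10.3, 9.20 and 9.50 in wild type, and CYP71B16 had 1.70, 1.40 and 2.00 in pho1 and 2.40, 0.90 and 4.30 in wild type. The groups overlapped or touched in all 10. CYP718, left out by the pattern, was as dim, at 3.30, 2.30 and 2.20 in pho1 and 2.80, 2.00 and 2.20 in wild type.

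The CYP71B genes lie in runs along the chromosomes, in the gene order of the RefSeq table. With at most 6 other genes between consecutive members, 17 of the 23 fall into 3 runs and 6 stand alone. The longest run, from CYP71B16 to CYP71B37 on chromosome 3, spans 25 genes, of which 18 have a P450 symbol and 11 are members. It holds CYP71B22, CYP71B23, CYP71B24 and CYP71B26 among its 6 tested members, and the 5 others were too dim. CYP71B21, CYP71B22 and CYP71B23 follow each other with no gene between them, and a single P450 gene separates CYP71B23 from CYP71B24. Log2 differences in this run reached from -0.57 for CYP71B24 to 2.26 for CYP71B23. The direct neighbours CYP71B22 and CYP71B23 lay at 0.96 and 2.26, and CYP71B34 and CYP71B35 at -0.21 and 0.14, with intervals that include 0 for all but CYP71B23. Differences between neighbours were not tested. Every member has a probe set of its own, but genes of a subfamily resemble each other in sequence, and how far a probe set also binds transcripts of a neighbour was not tested.

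**Figure D3:**
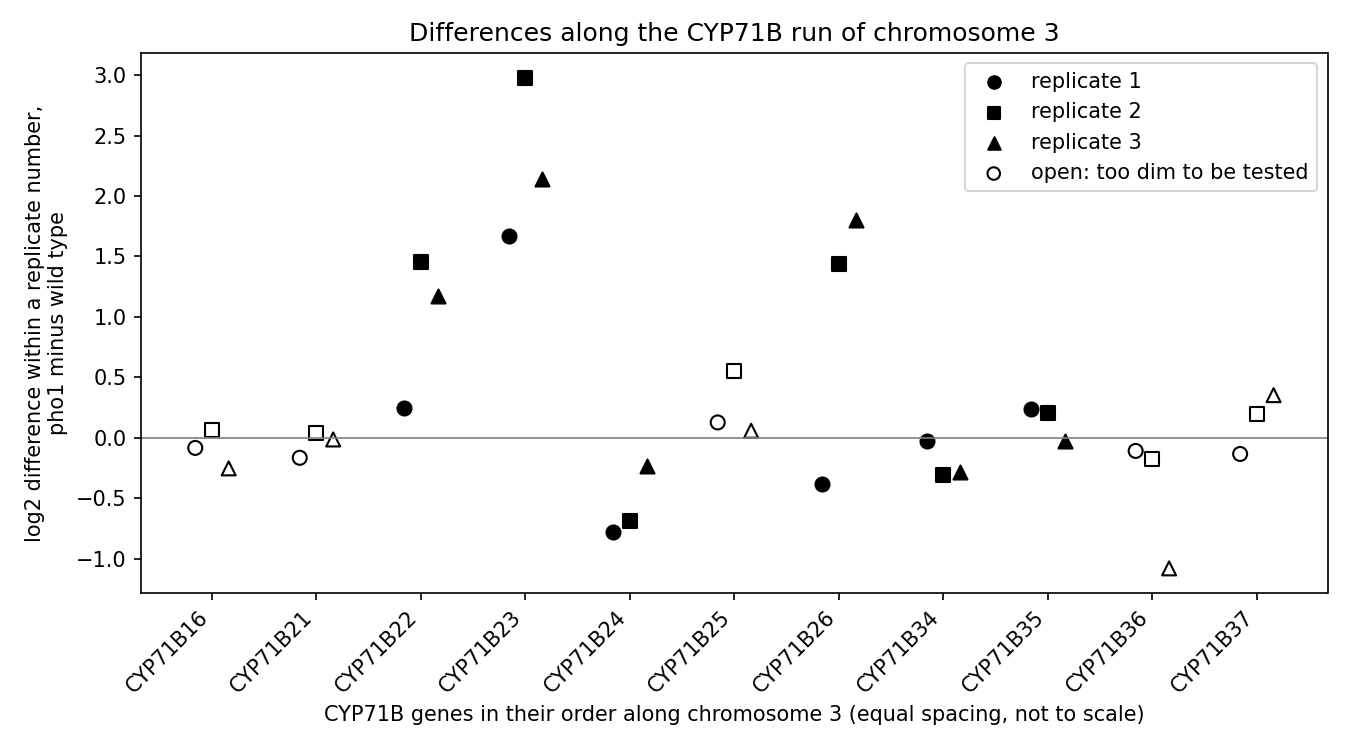
Log2 difference (pho1 minus wild type) within each replicate number for the 11 CYP71B members of the longest run on chromosome 3, in gene order and not to scale; filled symbols are tested genes and open ones were too dim. CYP71B23 lies above 0 in all 3 replicate numbers (1.67, 2.98 and 2.14), and CYP71B26 lies at -0.38 in replicate 1 and at 1.44 and 1.80 in replicates 2 and 3.

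The run of CYP71B27, CYP71B28 and CYP71B29 on chromosome 1 could be tested in full over all arrays, although CYP71B27 reached the limit only in pho1 when the groups were taken alone, with log2 differences of -0.28 to 0.04 and no call. The run on chromosome 3 that starts with CYP71B5 held 1 tested member, CYP71B5 itself. The other members there, CYP71B30P and CYP71B31, were under a signal of 3 on all arrays.

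The role lists had little to show, since most of their entries had no probe set listed for that gene alone in the platform annotation. Only 13513 of the 22746 probe sets had exactly 1 gene listed. Whether other probe sets of the array measure the missing genes was not tested. The lists for brassinosteroids, gibberellins, jasmonate, abscisic acid and carotenoids, cytokinin and strigolactone, cutin and wax, and xenobiotic response had 0 entries with a named probe set. The phenylpropanoid list had CYP84A4 as 1 of 7 entries, the organ growth list CYP78A9 as 1 of 6 and the camalexin and defence list CYP71B6 as 1 of 8. The glucosinolate list had CYP79A2 as 1 of 13 and the sterol list CYP51G2 as 1 of 12. None of these 5 genes was called over all arrays (limma); 3 of them were tested.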

How the data were processed

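The table deposited by the authors holds 1 linear intensity per probe set and array. It was made with MAS5, according to the submitters' processing notes, which name no version. Arrays were scaled to their mean trimmed mean (2% left out at each end), an offset of 10% of it was added and log2 taken. Of 22810 probe sets, 64 controls were left out. The 15922 whose mean log2 value reached the 30th percentile (a signal of 17.4) were tested with limma 3.58.1 in R 4.3.3 (intensity trend, two-sided, Benjamini-Hochberg, no block). The code was first run on simulated data with independent noise on each array. That check held no shared deviation of same-numbered arrays, so it cannot show how the test behaves with one. The number of arrays limits the precision. Plots were drawn with matplotlib 3.10.9. Members were matched by symbol and named through the platform annotation. Of them, 23 of 23 matched a locus in RefSeq's table of TAIR10.1, which gave the locus, the gene type and the gene order. Signals of different probe sets are not compared as transcript levels.

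Same-numbered samples deviated together from their group means (correlations of 0.42, 0.22 and 0.39 for replicates 1, 2 and 3). The sample titles give the replicate numbers, but no label says that they mark pairs. On these correlations alone, the differences within replicate numbers and the block fit treat them as pairs. The main fit ignores any pairing. Replicate 2 of pho1 correlated more with wild type replicate 3 (0.33) than with its own number, so pairs 2 and 3 are not clearly told apart. Fitting the replicate number as a block gave 1057 calls (6.64%) in place of 472, and the P450 call stayed at 1.

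The members, lists and alternatives were chosen with earlier results of these data known. The naming rule took called members, members without overlap between groups, list members and the 5 of highest signal; the other members were named, after their values were seen, to account for all 23.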

Additional observations from a re-analysis of the deposited data

How the results depend on the processing

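Over all arrays 1 P450 probe set passed (limma), and 472 of all probe sets. The P450 count was 0 with no filter on dim probe sets (2 at an unadjusted p under 0.05), 5 with array weights, 4 in replicates 2 and 3 alone, and 0 to 2 when 1 array was left out. The count of all probe sets was 289 with no filter, 3789 with array weights (23.8%), 3021 in replicates 2 and 3 alone, 1057 with the replicate block, and 161 to 1040 when 1 array was left out. The replicate block changed no call of a P450 gene; the limma adjusted p of CYP71B23 was 0.0036 with it. The calls added with array weights were CYP71B22 (1.20), CYP71B26 (1.37), CYP71B6 (0.65) and CYP71B24 (-0.61). The 0 counts when 1 array was left out came with pho1 replicate 2, pho1 replicate 3 or wild type replicate 2 left out, each with 2 members at an unadjusted p under 0.05. Without wild type replicate 1, CYP71B26 was called in place of CYP71B23.

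Signs turned for 3 tested members. CYP78A9 was at -0.034 with quantile normalization, -0.038 with median centring, -0.12 with array weights and -0.090 in replicates 2 and 3. Leaving out 1 array put it between -0.056 (wild type replicate 1) and 0.091, with -0.00038 without pho1 replicate 1. CYP71B27 was at -0.026 with quantile normalization and -0.028 with median centring. It was at -0.057 without wild type replicate 2 and at 0.22 without pho1 replicate 3. In the other fits with 1 array left out it was too dim for a test. CYP84A4 lay between -0.030 (without pho1 replicate 3) and 0.37 when 1 array was left out. None of these was called. The other 10 tested members kept their direction under each alternative that tested them (16 for 7 of them and 15 for CYP71B22, CYP71B29 and CYP71B35, too dim for the filter at the 50th percentile). Whether the replicate 1 arrays differ by a batch was not tested.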
